A study of Rattus norvegicus with 50 samples.

Results

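The genes described here are the chemokine ligands on the array other than those of lymphoid stroma and Ccl28, an epithelial and mucosal ligand. They are every gene whose symbol is Ccl or Cxcl with a number, plus Xcl1, Cx3cl1 and Pf4, without Ccl19, Ccl21, Cxcl13 and Ccl28. The rule found 31 of the 18166 genes that had a probeset with 1 gene symbol, and each of the 31 had 1 such probeset. Female Sprague-Dawley rats were exposed from postnatal day (PND) 1 to PND 180, up to weaning at PND 28 through their dams' milk and afterwards by gavage, and were killed at PND 181. They received olive oil (OIL) as the vehicle control, or triclosan (TCS), diethyl phthalate (DEP) or methyl paraben (MPB) in it, or these 3 compounds together (MIX), and in each treatment 5 rats stayed nulliparous and 5 were mated at PND 97 and had weaned their pups by the time of death (parous). RNA of the caudal mammary gland of each of the 50 rats was measured on 1 array, so that a rat is a replicate. Siblings were kept apart within a treatment group, and rats are named by their labels (DEP_par_46 is a DEP-treated parous rat).

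Chemokines are small secreted or membrane-anchored proteins that guide leukocytes by binding receptors on their surface. Ligands with an ELR motif attract neutrophils through CXCR2, interferon-inducible ligands attract activated T cells through CXCR3, and the CC ligands call in monocytes, eosinophils and T cells through CCR receptors. In the mammary gland, macrophages and eosinophils drawn in by such signals are known to take part in the branching of the ducts.

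The values are log2 signals, in which 1 unit is a doubling. A probeset's signal also depends on its own sequence, so levels are compared between rats and not between genes. RNA had been extracted with a Promega kit from 26 rats and with a Zymo kit from 24, and each DEP group held 1 Promega and 4 Zymo rats where each other group held 3 and 2. The kit differed for 23 of the 28 tested ligands, and for 84.9% of all tested genes, at an adjusted p under 0.05. Signals were higher with the Zymo kit in 20 of them and lower in 3 (Cx3cl1, Cxcl12 and Cxcl16), with Pf4 4.23 higher (SE 0.11, 18.7-fold) and Ccl6 1.92 higher (SE 0.16). The kit was therefore a term of the fit, and the kit-adjusted values below are Promega rats moved to the Zymo level by the fitted kit difference. This moves a level and leaves the spread within each kit. The SD of Ccl12 was 0.995 over Zymo and 0.173 over Promega rats, and that of Cxcl6 0.655 and 0.185. Changes were fitted with limma over the 50 rats, and a gene was called at a Benjamini-Hochberg adjusted p under 0.25 over 13421 genes and a change of at least 1.5-fold (0.58 on the log2 scale). These 13421 genes had a mean signal above 6.31, the 30th percentile, in at least 1 of the 10 groups.

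Of the 31 ligands, 28 passed this filter and 3 did not, namely Ccl1, Ccl26 and Cxcl3. Above the filter in all 10 groups were 22 ligands, and 5 passed it in 3 groups or fewer: Ccl12 only in DEP parous rats, Cxcl6 only in DEP nulliparous rats, Cxcl11 in both DEP groups, and Ccl9 and Ccl20 in both DEP groups and in TCS nulliparous rats. The filter used deposited values, and the DEP groups held more Zymo rats than the others. All 5 ligands read higher with the Zymo kit, by 0.37 (Cxcl11) to 1.21 (Ccl12). Kit-adjusted Cxcl6 was highest in OIL nulliparous rats (6.87) and lowest in DEP parous rats (6.14). The kits' part in this pattern was not tested. Signals of the 6 probesets with the highest means, which do not order the amounts of RNA, were those of Cxcl12 (11.1 ± 0.64, SD, n = 50, range 9.93 to 12.1), the anchor of stem and immune cells to stroma, Cxcl16 (10.8 ± 0.51), Ccl5 (10.6 ± 0.76), Ccl6 (10.2 ± 1.10), Ccl2 (9.72 ± 0.54) and Cxcl9 (9.48 ± 0.40). These deposited values still hold the kit difference. The tissue carried the markers of fat and epithelium, with Adipoq at 12.9, Epcam at 10.7 and Krt18 at 9.81.

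Single rats stood apart from their own groups before any comparison. On a lymphocyte score, the mean of the centred kit-adjusted values of 18 T and B cell genes, rat DEP_par_38 read -1.11 where the other DEP-treated parous rats read 1.92, 2.03, 2.32 and 2.33. Parous controls spread from -1.41 to 2.01 on the same score, so these groups overlapped. Results that rest on DEP_par_38 are given below with and without it.

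According to RefSeq's GRCr8 annotation, the 31 genes lie on 10 chromosomes, with 11 on chromosome 10, 8 on chromosome 14 and 3 on chromosome 19. In 15 cases no protein-coding gene separated a ligand from the ligand before it. Such neighbours include Ccl9, Ccl6, Ccl3 and Ccl4 in this order, Ccl17, Cx3cl1 and Ccl22, and Cxcl2 and Cxcl1. The RefSeq promoter table held windows of 300 bases around the gene's start for 24 of the 31. An NF-kappa-B-like pattern (GGG, any 5 bases, CC, on either strand) was in 15 of these 24 windows (62.5%) and in 47.3% of all 33469 windows. The letters TTCNNNGAA, a STAT-like pattern that reads the same on both strands, were in 5 of the 24 (20.8%) and in 8.87% of all windows. A match is a run of letters and not a measured binding site. The stretches below belong to the 3 neutrophil attractants that passed the filter, of which Cxcl1 and Cxcl6 were lower in DEP-treated parous rats and Cxcl2 was not called, and to Ccl17, the ligand with the largest estimate. For the Cxcl genes they run from base -130 to base -41 before the start and for Ccl17 from -90 to -1, all on the minus strand of GRCr8, 5′ to 3′, with the pattern in capitals. Adjoining capitals come from matches on both strands that overlap, and the capitals in Ccl17 mark the STAT-like pattern.
Cxcl1, chr14:17479362-17479451: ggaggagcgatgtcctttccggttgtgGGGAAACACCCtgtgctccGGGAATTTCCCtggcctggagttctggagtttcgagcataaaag
Cxcl2, chr14:17467296-17467385: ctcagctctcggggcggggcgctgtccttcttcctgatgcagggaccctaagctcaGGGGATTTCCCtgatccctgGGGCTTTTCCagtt
Cxcl6, chr14:17596458-17596547: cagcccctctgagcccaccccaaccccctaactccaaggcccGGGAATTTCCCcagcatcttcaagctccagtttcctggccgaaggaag
Ccl17, chr19:10209896-10209985: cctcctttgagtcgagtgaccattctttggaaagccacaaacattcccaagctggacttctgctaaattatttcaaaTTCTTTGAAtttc

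The first comparison asked which ligands differed between DEP-treated and control parous rats. Ligands were called in both directions, 6 lower and 6 higher of the 28 tested, where 5.53% of all tested genes were called lower and 2.09% higher. Lower were Cxcl1, Cxcl6, Cx3cl1, Ccl6, Pf4 and Ccl24, and higher were Ccl17, Ccl3, Ccl4, Ccl12, Ccl9 and Cxcl10. The median change of the 28 was 0.13, beside -0.03 over all tested genes, and the median size of the change was 0.55, beside 0.17. Among the 22 ligands above the filter in every group, 5 were called lower and 4 higher. In bulk tissue, fewer cells of a type and less RNA per cell cannot be told apart. The plot of effects by role shows both parities side by side.

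**Figure D1:**
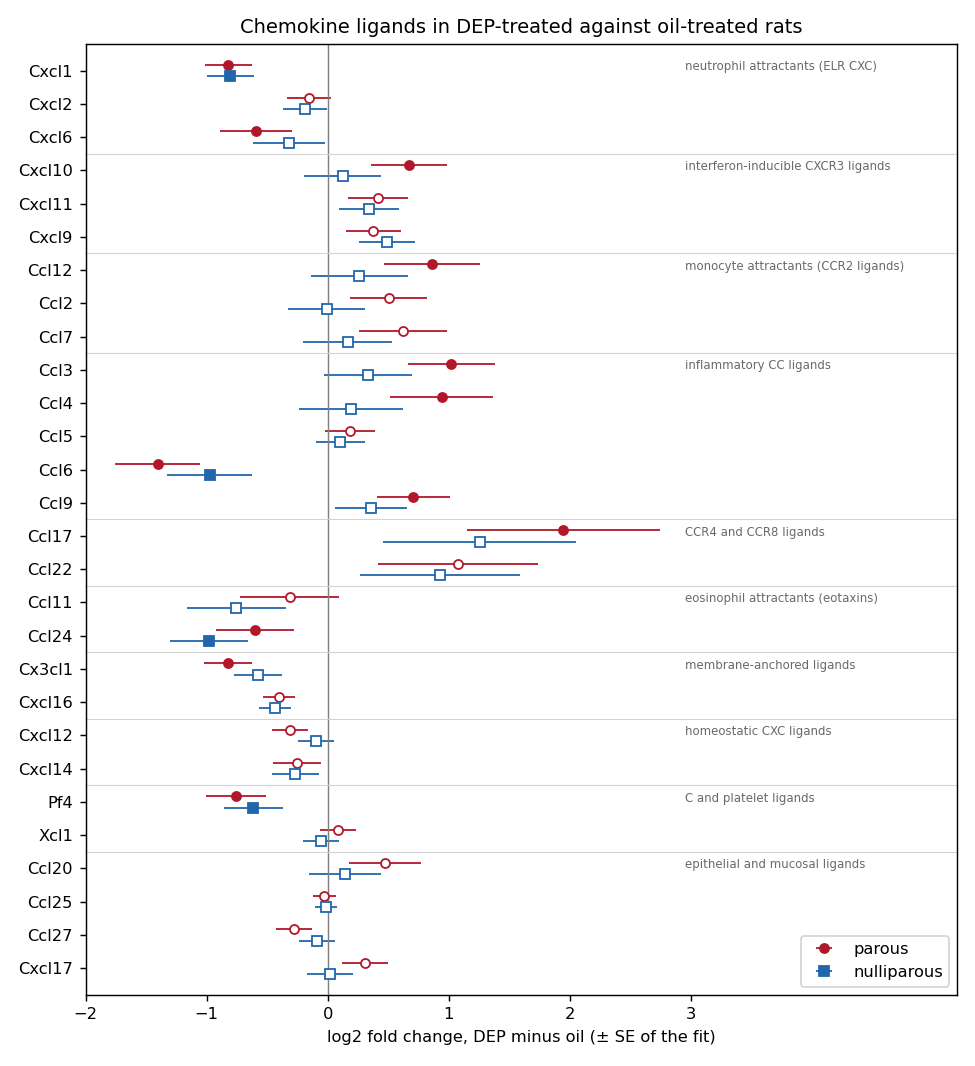
Log2 fold change of the 28 tested ligands in DEP-treated against oil-treated rats (x axis), grouped by role, with bars of 1 SE of the 50-rat limma fit, circles for parous and squares for nulliparous rats, and filled symbols where the gene was called. Ccl17 has the highest parous estimate (1.95, SE 0.80) and Ccl6 the lowest (-1.40, SE 0.35), while Cxcl1 stands at nearly the same place in both parities (-0.82 and -0.80).

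Among the neutrophil attractants, Cxcl1 fell by 0.82 (SE 0.19, 1.77-fold, adjusted p = 0.00663). Kit-adjusted Cxcl1 read 7.68, 7.73, 8.05, 8.21 and 8.73 in DEP-treated parous rats, against 8.47, 8.88, 8.92, 9.06 and 9.17 in controls. Only the Promega rat DEP_par_46 reached into the controls. The Cxcl1 difference was -0.90 within Zymo rats (4 against 2) and -0.22 within Promega rats (1 against 3). Cxcl6, a second ELR ligand, fell by 0.59 (SE 0.30, adjusted p = 0.21), with 5.64, 5.67, 5.85, 6.71 and 6.84 against 6.53, 6.65, 6.66, 6.76 and 7.05. Here 2 of the treated rats lay within the controls' range, the Promega rat among them, and Cxcl6 was above the filter in only 1 group. Within the kits Cxcl6 was -0.85 in Zymo rats (4 against 2) and 0.05 in Promega rats (1 against 3). Without DEP_par_38 it was -0.47 (adjusted p = 0.30) and no longer called. Cxcl2, the gene next to Cxcl1, was -0.15 (SE 0.18, adjusted p = 0.64, 95% interval -0.52 to 0.22). Cxcl3 lay below the filter, and in a fit without the filter it was -0.05 (SE 0.07). None of 8 tested neutrophil marker genes was called, with a median of -0.04.

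**Figure D2:**
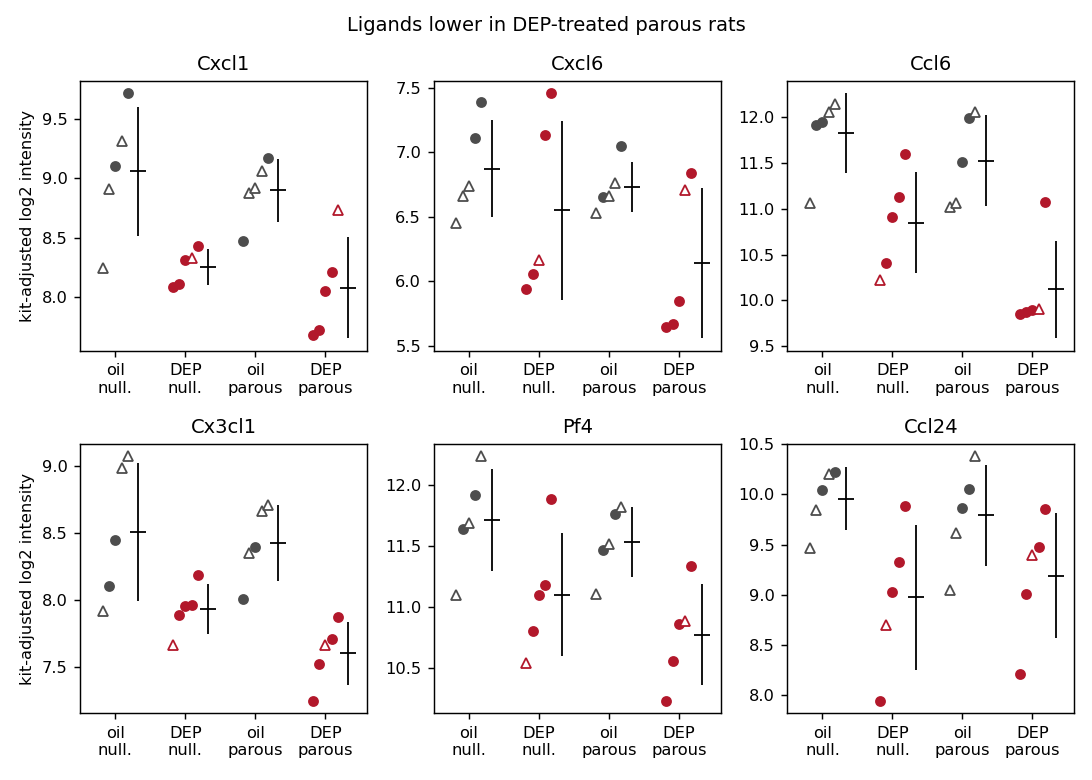
Kit-adjusted log2 intensity (y axis, its range set per gene) of the 6 ligands lower in DEP-treated parous rats, for each of 5 rats in 4 groups, with filled circles for Zymo rats, open triangles for Promega rats, red for DEP and grey for oil, and the mean with 1 SD beside them. The DEP-treated and control parous rats do not overlap for Cx3cl1 (highest treated rat 7.87, lowest control 8.01), and overlap for the other 5.

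Of the membrane-anchored ligands, Cx3cl1 was called and Cxcl16 was not. Cx3cl1, or fractalkine, which holds monocytes and T cells to endothelium and epithelium, fell by 0.83 (SE 0.20, 1.77-fold, adjusted p = 0.00735). It read 7.24, 7.52, 7.66, 7.71 and 7.87 in DEP-treated parous rats and 8.01, 8.35, 8.397, 8.66 and 8.71 in controls. It was the only ligand whose groups did not overlap in this comparison, where 4.42% of all tested genes were lower without overlap and 0.618% higher. For the 28 ligands, 1 without overlap was no greater a share than the 4.42%. Within the kits the Cx3cl1 difference was -0.62 for Zymo rats (4 against 2) and -0.91 for Promega rats (1 against 3). Cxcl16, the transmembrane ligand of CXCR6 on T and NK T cells, was -0.40 (SE 0.13, adjusted p = 0.052), under the fold threshold.

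Ccl6, a CCR1 ligand known from mouse macrophages, had the largest decrease, 1.40 (SE 0.35, 2.64-fold, adjusted p = 0.00988). It read 9.85, 9.87, 9.90, 9.90 and 11.07 in DEP-treated parous rats and 11.01, 11.06, 11.50, 11.99 and 12.05 in controls. Rat DEP_par_41 was the 1 treated rat within the controls' range, and the other 4 lay below every control. Pf4, the chemokine of platelet granules that macrophages also make, fell by 0.76 (SE 0.25, adjusted p = 0.052), with 10.23, 10.56, 10.86, 10.89 and 11.34 against 11.10, 11.47, 11.52, 11.76 and 11.82. A single treated rat lay inside the controls, but this order rests on the kit adjustment, and without a kit term the estimate was 0.93. Without that term Cxcl1 (-0.23) and Ccl6 (-0.63) stayed below 0 and were no longer called either. Within the kits Pf4 was -0.87 in Zymo and -0.60 in Promega rats. Of the other platelet genes, Ppbp was 0.02 (SE 0.10), Itga2b 0.25 (SE 0.15), Gp9 0.19 (SE 0.12) and Treml1 0.03 (SE 0.13), and none was called.

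Ccl24, an eotaxin that attracts eosinophils through CCR3, fell by 0.60 (SE 0.32, adjusted p = 0.249), at the very edge of the threshold. It read 8.22, 9.01, 9.40, 9.48 and 9.85 against 9.04, 9.62, 9.87, 10.05 and 10.38. Of the treated rats 3 lay among the controls, and without DEP_par_38, the lowest rat, the estimate was -0.36 (adjusted p = 0.46). Ccl11, the first eotaxin, was -0.31 (SE 0.41, adjusted p = 0.67). Of 8 tested mast cell and eosinophil genes, 5 were called lower and 1 higher (median -0.74), and their part in the Ccl24 result was not tested.

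The higher ligands were mostly CC chemokines of T cells and monocytes. Ccl17, which attracts CCR4-bearing T cells, rose by 1.95 (SE 0.80, 3.85-fold, adjusted p = 0.13). It read 7.27, 11.11, 11.67, 11.92 and 12.05 in DEP-treated parous rats and 7.44, 7.72, 8.74, 9.35 and 11.05 in controls. The lowest of all 10 was DEP_par_38 and the other 4 treated rats lay above every control, of which OIL_par_444 was nearest. Without DEP_par_38 the estimate was 2.80 (adjusted p = 0.00948), and without OIL_par_446 it was 1.54 (adjusted p = 0.34) and not called. Ccl17 kept its call in 5 of the 10 fits that left out 1 of these rats. Its partner Ccl22, the other CCR4 ligand, was 1.08 (SE 0.66, adjusted p = 0.31). Ccl17, Cx3cl1 and Ccl22 are neighbours on chromosome 19, and Cx3cl1 between them was lower where Ccl17 was higher.

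Ccl3 and Ccl4, which attract monocytes and T cells and are inflammatory CC ligands, rose by 1.02 (SE 0.36, 2.03-fold, adjusted p = 0.0758) and 0.94 (SE 0.43, adjusted p = 0.17). Ccl3 read 7.41, 9.65, 9.72, 9.88 and 9.90 against 7.75, 7.85, 8.29, 8.31 and 9.25 in controls. Ccl4 read 7.43, 9.38, 9.87, 10.20 and 10.25 against 7.56, 7.97, 8.46, 8.77 and 9.66. For both genes DEP_par_38 was the lowest of the 10 rats, and without it the estimates were 1.48 (adjusted p = 0.00141) and 1.43 (adjusted p = 0.0114). Without OIL_par_441, Ccl4 was 0.72 (adjusted p = 0.38) and not called. Of the 10 fits that left out 1 of these rats, Ccl3 kept its call in 10 and Ccl4 in 4. Ccl9, a CCR1 ligand like Ccl6, rose by 0.71 (SE 0.30, adjusted p = 0.14), with 5.75, 6.75, 7.72, 7.77 and 7.96 against 6.01, 6.30, 6.39, 6.53 and 7.18. Without DEP_par_38 it was 1.06 (adjusted p = 0.00739), and without DEP_par_40 it was 0.52 (adjusted p = 0.36) and not called. Ccl9 kept its call in 5 of the 10 fits. Ccl5 was 0.18 (SE 0.20, adjusted p = 0.61). Along chromosome 10, Ccl9, Ccl3 and Ccl4 were therefore higher and Ccl6, between Ccl9 and Ccl3, was lower.

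Of the CCR2 ligands, which call monocytes out of the blood, Ccl12 rose by 0.86 (SE 0.40, adjusted p = 0.18). It read 5.44, 6.42, 7.44, 8.13 and 8.93 against 5.55, 6.09, 6.29, 6.34 and 7.79, and 3 of the treated rats lay among the controls or below them. Within the kits Ccl12 was 0.81 in Zymo rats (4 against 2) and 0.18 in Promega rats (1 against 3), whose spread was narrower. Without DEP_par_41 it was 0.46 (adjusted p = 0.47) and without DEP_par_38 1.30 (adjusted p = 0.014). Ccl7 was 0.62 (SE 0.37, adjusted p = 0.29) and Ccl2 0.50 (SE 0.32, adjusted p = 0.33), neither called. Ccl12 had passed the filter only in the DEP parous group, where it was highest.

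Of the interferon-inducible CXCR3 ligands, Cxcl10 rose by 0.67 (SE 0.32, adjusted p = 0.19). It read 8.19, 8.41, 9.57, 10.24 and 10.75 against 8.23, 8.37, 8.73, 9.23 and 9.25, so that 3 treated rats lay above all controls. Without DEP_par_41, its highest rat, Cxcl10 was 0.35 (adjusted p = 0.49), and without DEP_par_38, its lowest, 0.97 (adjusted p = 0.0255). Cxcl11 was 0.42 (SE 0.25, adjusted p = 0.30) and Cxcl9 0.38 (SE 0.23, adjusted p = 0.31). Of 14 tested interferon response genes, 4 were called higher and none lower (median 0.40), with DEP_par_41 highest on their score at 1.58.

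**Figure D3:**
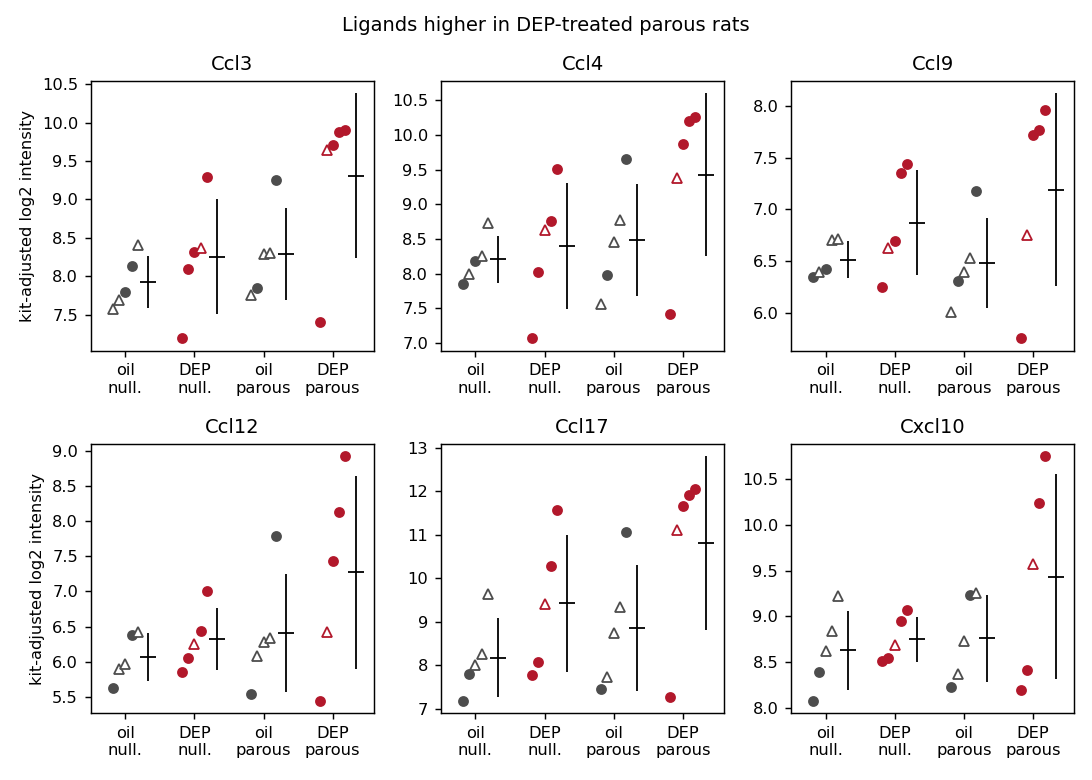
Kit-adjusted log2 intensity (y axis, its range set per gene) of the 6 ligands higher in DEP-treated parous rats, in the same 4 groups, symbols and colours as in the plot of the lower ligands, with the mean and 1 SD. In Ccl3, Ccl4, Ccl9, Ccl12, Ccl17 and Cxcl10 the lowest DEP-treated parous rat is DEP_par_38 (7.27 for Ccl17), and the DEP-treated and control parous rats overlap for each of them.

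The remaining ligands were not called in this comparison. Cxcl12 was -0.32 (SE 0.15, adjusted p = 0.19) and Cxcl14, a constitutive ligand of epithelium and fat, -0.25 (SE 0.19, adjusted p = 0.43). Ccl27, a ligand of CCR10 in skin, was -0.28 (SE 0.15, adjusted p = 0.247), which passed the p threshold and missed the fold. Ccl20, the CCR6 ligand of mucosal epithelium, was 0.47 (SE 0.30), Cxcl17, a mucosal ligand, 0.31 (SE 0.19), Ccl25, which guides gut T cells through CCR9, -0.03 (SE 0.09), and Xcl1, the ligand of XCR1 dendritic cells, 0.08 (SE 0.15). Their adjusted p-values lay above the threshold. Of the ligands below the filter, Ccl1 was 0.11 (SE 0.14) and Ccl26 0.06 (SE 0.10) in the fit without it.

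The calls in DEP-treated parous rats depended on single rats and on the kits. Cxcl1, Cx3cl1, Ccl6, Pf4 and Ccl3, 5 of the 12, were called whichever of the 10 rats was left out, and the count fell to 5 (4 lower, 1 higher) without DEP_par_37, OIL_par_441 or OIL_par_446 and to 7 (4 lower, 3 higher) without DEP_par_40. It was 8 without DEP_par_41 (6 lower, 2 higher) or DEP_par_46 (5 lower, 3 higher). It was 14 (4 lower, 10 higher) without DEP_par_38 and 15 (4 lower, 11 higher) without OIL_par_444, so that the split between directions rested on single rats. With no kit term 2 were lower and 5 higher. Among the 24 Zymo rats alone no ligand was called by limma (5 had an unadjusted p under 0.05, and 5 genes of the whole array were called), and in a fit of only these 10 rats 4 were called, all lower.

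The same comparison in nulliparous rats gave 4 ligands lower and none higher of the 28, where 2.39% of tested genes were called lower and 0.149% higher. Cxcl1 fell by 0.80 (SE 0.19, 1.75-fold, adjusted p = 0.0499), reading 8.09, 8.11, 8.31, 8.33 and 8.43 against 8.24, 8.91, 9.11, 9.32 and 9.72 in controls. A single control, OIL_null_429, lay within the treated rats. The Cxcl1 difference was -1.18 within Zymo rats (4 against 2) and -0.49 within Promega rats (1 against 3). Ccl24 fell by 0.98 (SE 0.32, 1.97-fold, adjusted p = 0.12), reading 7.94, 8.70, 9.03, 9.32 and 9.88 against 9.47, 9.84, 10.04, 10.21 and 10.22. Only the highest treated rat, DEP_null_30, reached the controls.

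Ccl6 fell by 0.97 in nulliparous rats (SE 0.35, adjusted p = 0.16), reading 10.22, 10.40, 10.91, 11.12 and 11.59 against 11.06, 11.91, 11.94, 12.05 and 12.14. Pf4 fell by 0.61 (SE 0.25, adjusted p = 0.21), reading 10.54, 10.81, 11.10, 11.18 and 11.88 against 11.10, 11.64, 11.69, 11.92 and 12.24. Without a kit term, nulliparous Cxcl1 (-0.21), Ccl6 (-0.21), Ccl24 (-0.90) and Pf4 (1.08) were not called. In Ccl6 and Pf4 the control nearest to the treated rats was OIL_null_429, the control with the highest lymphocyte score (1.39, the others from -1.18 to -0.91). Cx3cl1 was -0.58 (SE 0.20, adjusted p = 0.14), just under the fold threshold, and Cxcl16 -0.43 (SE 0.13, adjusted p = 0.0924). The estimates for Ccl17 (1.25, SE 0.80), Ccl22 (0.92, SE 0.66), Ccl3 (0.33, SE 0.36) and Cxcl9 (0.49, SE 0.23, adjusted p = 0.30) were above 0 and not called. No ligand was free of overlap between these groups, where 3.63% of tested genes were lower without overlap. Cxcl1 was called whichever rat was left out. The count of called ligands fell to 2 without DEP_null_27, DEP_null_28, OIL_null_427 or OIL_null_431 and to 1 without OIL_null_428. It rose to 5, all lower, without DEP_null_30 and to 6 (5 lower, 1 higher) without OIL_null_429. Among Zymo rats alone it was 0 (4 at an unadjusted p under 0.05).

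The DEP effect itself was not shown to differ between parities. The interaction was called for 0 of the 28 ligands and for 0% of tested genes, with no ligand at an unadjusted p under 0.05. The largest gap among the 3 ligands of smallest p was that of Ccl4, called in parous rats only, at 0.75 (SE 0.59, 95% interval -0.45 to 1.95), and Ccl3 was 0.69 (SE 0.50, 95% interval -0.32 to 1.70). For Cxcl1 it was -0.02 (95% interval -0.56 to 0.53).

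The other treatments were set against the same oil controls, which all treatments share, and called no ligand. Of all tested genes 0.00745% were called for MPB in parous rats, and 0% for TCS and MIX in parous rats and for each of the 3 in nulliparous rats. At an unadjusted p under 0.05 there were 3 ligands for MIX in parous rats, 1 for TCS in nulliparous rats (Ccl27, -0.30, SE 0.15) and 0 in the other 4 comparisons. The 3 for MIX were Cxcl16 (-0.40, SE 0.13), Ccl24 (-0.75, SE 0.32) and Cxcl12 (-0.32, SE 0.15), each with an adjusted p = 0.95. All 28 tested ligands had an estimate below 0 in MIX parous rats, with a median of -0.34, whereas 51.4% of all tested genes did. The count was 25 to 28 with any 1 rat left out, 24 in Zymo rats alone and 26 with the lymphocyte score as a covariate, and the ligands share rats and cells, so no test was made of it. Of these parous MIX rats, the lymphocyte score ran from -1.45 to 0.76.

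For MPB the smallest p in parous rats belonged to Ccl24 (-0.61, SE 0.32), Ccl5 (0.36, SE 0.20) and Ccl6 (-0.52, SE 0.34), and in nulliparous rats to Ccl2 (-0.37, SE 0.31), Cxcl9 (-0.23, SE 0.23) and Cxcl1 (-0.18, SE 0.19). For TCS these were Ccl24 (-0.56, SE 0.32), Pf4 (-0.37, SE 0.24) and Ccl7 (-0.52, SE 0.36) in parous rats and, after Ccl27, Ccl17 (1.24, SE 0.79) and Cxcl1 (-0.27, SE 0.19) in nulliparous rats. For MIX in nulliparous rats they were Cxcl1 (-0.30, SE 0.19), Cxcl6 (-0.44, SE 0.29) and Ccl24 (-0.47, SE 0.32). Ccl24 thus had an estimate below 0 for each of the 4 treatments in parous rats, at -0.60 for DEP, -0.61 for MPB, -0.56 for TCS and -0.75 for MIX, all against the same 5 controls. The interaction of treatment and parity was called for 0 ligands and 0% of tested genes for MPB, TCS and MIX as well, with no ligand at an unadjusted p under 0.05. The smallest p belonged to Ccl5 for MPB (0.53, SE 0.28), Ccl20 for TCS (-0.73, SE 0.42) and Cxcl12 for MIX (-0.37, SE 0.21).

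**Figure D4:**
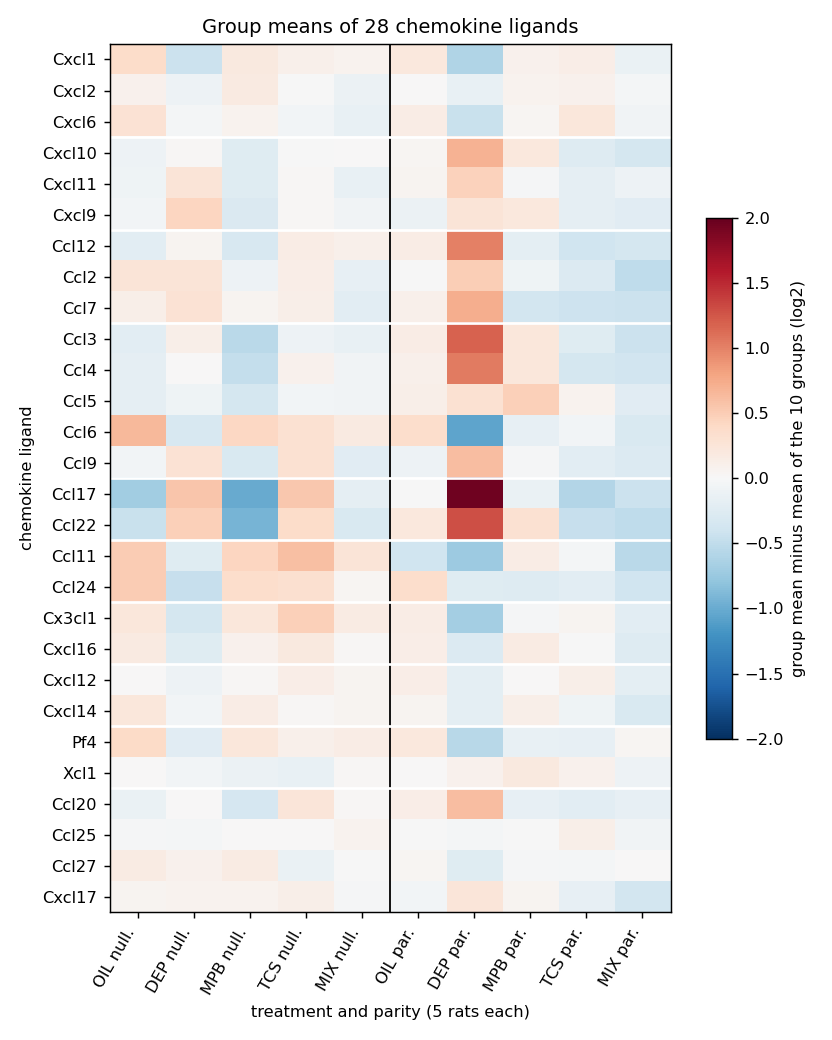
Mean kit-adjusted log2 signal of 28 ligands (rows, in the order of the effect plot) in 10 groups of 5 rats (columns), each row centred on the mean of its groups, with red above and blue below that mean. The DEP parous column is highest for Ccl17 (10.8) and lowest for Ccl6 (10.1), and the MPB nulliparous column is lowest for Ccl17 (7.86) and Ccl22 (6.63).

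Over the 10 groups together, the moderated F test called 5 of the 28 ligands, Cx3cl1, Cxcl1, Cxcl16, Ccl6 and Ccl3, at an adjusted p under 0.05, where 10.5% of tested genes were called. Cx3cl1 (adjusted p = 0.00268) ran from 7.60 ± 0.24 (SD, n = 5) in DEP parous to 8.76 ± 0.12 in TCS nulliparous rats. Cxcl1 (adjusted p = 0.00707) ran from 8.08 ± 0.43 in DEP parous to 9.06 ± 0.55 in OIL nulliparous rats. In both genes, the 2 lowest of the 10 group means were those of the DEP groups. Cxcl16 (adjusted p = 0.0135) was lowest in DEP parous rats at 10.1 ± 0.29, with MIX parous (10.1 ± 0.28) and DEP nulliparous (10.1 ± 0.18) within the spread, and highest in TCS nulliparous rats at 10.6 ± 0.06. Ccl6 (adjusted p = 0.02) ran from 10.1 ± 0.53 in DEP parous to 11.8 ± 0.43 in OIL nulliparous rats, and Ccl3 (adjusted p = 0.0324) from 7.61 ± 0.20 in MPB nulliparous to 9.31 ± 1.07 in DEP parous rats. The count was 3 without DEP_par_37, DEP_par_40 or DEP_par_46 and 16 without DEP_par_38. Over all tested genes it moved too, from 1410 to 716 to 891 without DEP_par_37, DEP_par_40 or DEP_par_46 and to 2539 without DEP_par_38.

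Parity was compared over all treatments, 25 parous against 25 nulliparous rats. Ccl11, the eotaxin that draws eosinophils into the gland around growing ducts in mice, was the only ligand called, where 0.432% of tested genes were called lower in parous rats and 0.276% higher. It fell by 0.62 (SE 0.18, 1.54-fold, adjusted p = 0.0206). Mean Ccl11 was lower in the parous group of each treatment, at 9.25 ± 0.46 against 10.2 ± 0.40 in OIL, 8.94 ± 0.21 against 9.41 ± 1.15 in DEP, 9.80 ± 0.50 against 10.1 ± 0.67 in MPB, 9.62 ± 0.58 against 10.3 ± 0.33 in TCS and 9.12 ± 0.87 against 9.91 ± 0.78 in MIX (SD, n = 5 each). In oil controls the rats read 8.59, 8.99, 9.45, 9.45 and 9.77 when parous and 9.63, 9.88, 10.26, 10.51 and 10.56 when nulliparous, and a single parous rat overlapped. The change came close to the fold threshold, and the call was lost without DEP_null_30 (-0.57), MPB_null_129 (-0.58), MIX_null_329 (-0.57) or MIX_par_338 (-0.57). Cx3cl1 (-0.29, SE 0.09, adjusted p = 0.0253), Ccl6 (-0.49, SE 0.15, adjusted p = 0.0366) and Ccl5 (0.29, SE 0.09, adjusted p = 0.0299) passed the p threshold with changes under 1.5-fold. The Ccl11 partner Ccl24 was -0.31 (SE 0.14, adjusted p = 0.17).

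Chemokine receptors, through which leukocytes read these ligands, were counted as a list. Of 23 receptor genes listed, 20 were measured and 16 passed the filter, and in DEP-treated parous rats 1 was called lower and 1 higher. Ccr1, the receptor for Ccl3, Ccl6 and Ccl9, was -0.87 (SE 0.33, adjusted p = 0.0976) and Ccr4, the receptor for Ccl17 and Ccl22, was 0.96 (SE 0.38, adjusted p = 0.12). In nulliparous rats Ccr1 was -1.02 (SE 0.33, adjusted p = 0.11) and Ccr4 0.52 (SE 0.38, adjusted p = 0.55). Cx3cr1, the receptor for Cx3cl1, was -0.01 (SE 0.15) in parous rats, and Cxcr2, the receptor for Cxcl1, -0.14 (SE 0.18). Of the ligands left out by the rule, Ccl28 was -0.83 (SE 0.26, adjusted p = 0.0441) in parous rats, and Ccl19 (1.91, SE 1.21), Ccl21 (0.53, SE 0.22) and Cxcl13 (0.53, SE 0.83) were not called.

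Markers of several cell types moved with these groups. In DEP-treated parous rats 15 of 17 epithelial genes were called lower (median -1.09), and the epithelial score ran from -1.30 to -0.30, below all controls (-0.10 to 0.39). In nulliparous rats 9 of 17 were lower (median -0.60), and the score ran from -0.75 to -0.29 against -0.15 to 0.45. Epcam, Krt18, Krt19, Cldn3, Esrp1, Spint1 and Prom1 on this list also belong to the article's DEP signature. That signature was drawn from DEP-treated and control rats of this series, so the list is not independent of it. Of 18 lymphocyte genes, 3 were called higher and none lower in parous rats (median 1.24) and none was called in nulliparous rats (median 1.01). Of 14 tested macrophage genes, 3 were lower and 1 higher in parous rats (median -0.23) and 6 lower in nulliparous rats (median -0.41), and Vsig4 alone lay below the filter. The macrophage score ran from -0.70 to 0.29 in DEP-treated parous rats and from -0.22 to 0.66 in controls.

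With the lymphocyte score as a covariate, 5 ligands were called lower and 1 higher in DEP-treated parous rats. Over all tested genes 462 were called, where the main fit called 1023. Cxcl1 was then -0.74, Cx3cl1 -0.72 and Ccl6 -1.26, while Ccl17 was 0.76 (adjusted p = 0.22). The estimates of Ccl3 (0.55, under the fold threshold), Ccl9 (0.39), Ccl4 (0.35), Ccl12 (0.47), Cxcl10 (0.43) and Cxcl6 (-0.47) were no longer called. With the epithelial score as a covariate, no ligand was called in either parity (3 at an unadjusted p under 0.05 in each) and 2 genes of the array in parous rats. As given above, the epithelial score did not overlap between DEP-treated and control rats of either parity. The estimates for Ccl17, Ccl3, Ccl4 and Ccl9 turned below 0 in that fit, and Cx3cl1, the ligand without overlap, moved from -0.83 to -0.28. The other lower ligands were Cxcl1 at -0.64, Ccl6 at -1.02, Pf4 at -0.48, Ccl24 at -0.75 and Cxcl6 at -0.60.

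Variation between rats of the same group was then set against the cell scores. Each ligand's residual after group and kit was correlated with the residual score of lymphocyte, macrophage and epithelial genes over 50 rats, 84 relations in all, with two-sided tests of 100000 permutations adjusted over all 84. Group differences do not enter these values, but ligand and score come from the same arrays. For lymphocytes 19 ligands passed an adjusted p under 0.05, 15 with a positive and 4 with a negative correlation. For macrophages 15 were positive and 1 negative, and for epithelium 1 was positive and 10 negative. Several of the macrophage relations were weak within Promega rats. For Ccl2, Ccl7, Ccl9, Ccl17, Ccl20 and Ccl22, r was 0.72 to 0.87 within Zymo rats and -0.03 to 0.24 within Promega rats.

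Ccl22 followed the lymphocyte score most closely, with r = 0.96 and rho = 0.96 (p = 1e-05 by permutation for each, the smallest these permutations can give, adjusted p = 4.67e-05 and 9.33e-05). It was 0.94 within Zymo and 0.98 within Promega rats, and 0.95 without DEP_par_38 and TCS_par_239, the 2 rats farthest from the median. Ccl17 followed with r = 0.91 and rho = 0.91, with 0.98 within Zymo and 0.91 within Promega rats and 0.90 without those 2 rats. Ccl4 had r = 0.86 and rho = 0.84 (0.93 and 0.85 within the kits, 0.85 without those rats). Ccl3 had r = 0.82 and rho = 0.81 (0.93 and 0.73 within the kits, 0.82 without those rats), and these 3 genes had the same permutation p as Ccl22. Before group and kit were removed, the score left a gap between 28 low and 22 high rats, and within these sets Ccl22 had r = 0.89 and 0.92 and Ccl17 0.82 and 0.81. Ccl27 had the most negative relation, r = -0.62 and rho = -0.58 (-0.61 without those rats, -0.70 within Zymo and -0.56 within Promega rats).

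**Figure D5:**
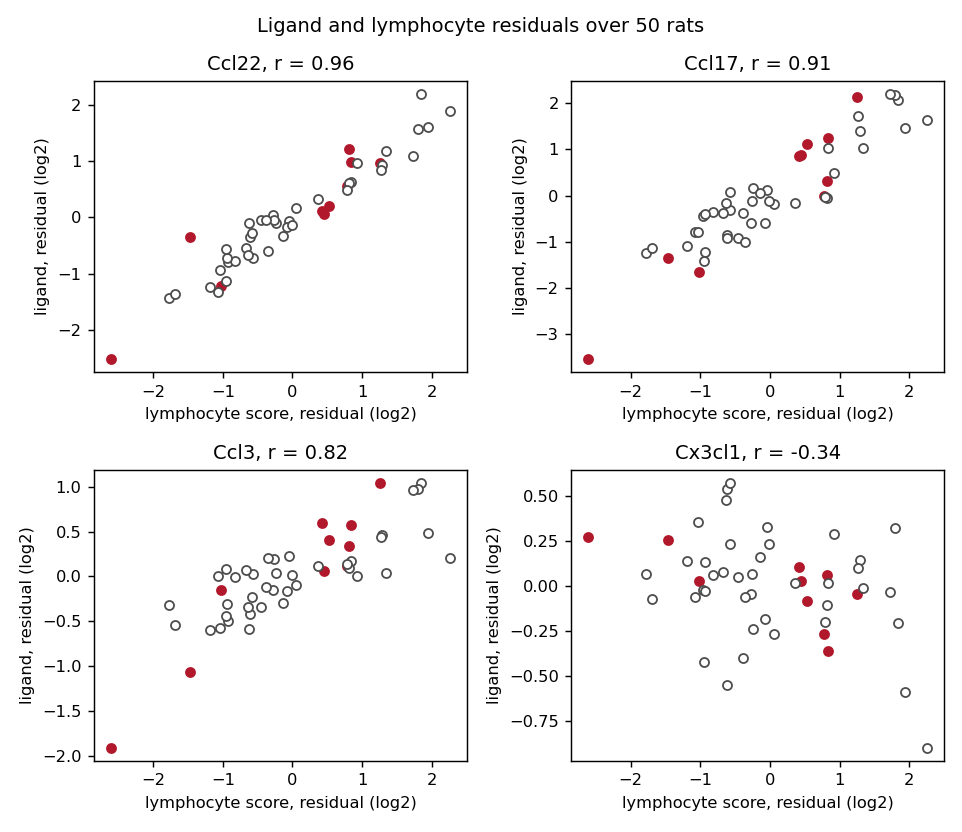
Residual log2 signal of 4 ligands (y axis) against the residual lymphocyte score (x axis, log2), both after group and kit, for 50 rats, with filled red points for DEP-treated and open points for other rats. Ccl22 (r = 0.96), Ccl17 (r = 0.91) and Ccl3 (r = 0.82) rise with the score, DEP_par_38 is the point at the far left, and Cx3cl1 has r = -0.34, which is -0.20 without the 2 farthest rats.

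The 6 ligands lower with DEP in parous rats had relations of either sign with the lymphocyte score. These were r = -0.43 for Pf4, -0.34 for Cx3cl1 and 0.31 for Ccl24 at an adjusted p under 0.05 for r, and -0.25 for Cxcl6 and Ccl6, which did not pass. In the permutation test of rho, Pf4 passed (adjusted p = 0.00252), and Cx3cl1 (adjusted p = 0.10) and Ccl24 (adjusted p = 0.15) did not. Within Zymo and Promega rats, r was -0.14 and -0.67 for Pf4, -0.05 and -0.56 for Cx3cl1, and 0.55 and 0.02 for Ccl24. Cxcl1 had r = -0.26 with lymphocytes, -0.03 with macrophages and 0.17 with epithelium, none at an adjusted p under 0.05. Cx3cl1 had r = 0.51 and rho = 0.48 with epithelium (permutation p = 0.00019 and 0.00044, adjusted p = 0.00057 and 0.00148), the only positive relation of that score to pass, with 0.45 within Zymo and 0.57 within Promega rats and 0.50 without MPB_par_139 and DEP_par_38. Ccl6 had r = 0.58 and rho = 0.56 with macrophages (permutation p = 2e-05 for each, adjusted p = 8.4e-05 and 0.00014), with 0.57 within Zymo and 0.65 within Promega rats and 0.56 without the 2 farthest rats. Ccl24 had r = 0.84 and rho = 0.83 with macrophages (permutation p = 1e-05, adjusted p = 4.67e-05 and 9.33e-05), 0.86 and 0.81 within the kits and 0.81 without DEP_par_38 and MIX_par_341. Pf4 had r = 0.40 and rho = 0.39 with macrophages (permutation p = 0.00364 and 0.00493, adjusted p = 0.00784 and 0.0115), with 0.32 within Zymo and 0.55 within Promega rats and 0.44 without those rats. For Ccl3 and Ccl4 the relation with macrophages was 0.85 and 0.87 within Zymo rats and 0.11 and 0.16 within Promega rats, so that it did not hold in both kits. With the macrophage score as a covariate, a fit chosen after the data were seen, Ccl6 was -1.12 (adjusted p = 0.00992) and Ccl24 -0.23 (adjusted p = 0.42) in DEP-treated parous rats. In that fit 4 ligands were lower and 10 higher in parous rats, with Ccl17 at 2.66 (adjusted p = 0.00496) and Ccl3 at 1.35 (adjusted p = 0.00158). In nulliparous rats 1 was lower, Cxcl1 at -0.82 (adjusted p = 0.0569), and 8 were higher, while Ccl6 (-0.53, adjusted p = 0.34), Ccl24 (-0.38, adjusted p = 0.27) and Pf4 (-0.40, adjusted p = 0.37) were not called.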

How the data were processed

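Per the labels and the article, total RNA with an integrity number above the study's limit was hybridised to Affymetrix Rat Gene 2.0 ST arrays, and the authors made the deposited log2 values by robust multi-array averaging (RMA) in Expression Console, with quantile normalisation between arrays. The article also describes ComBat in R 3.0.2 for the kit, but the deposited values still differed between kits. Array medians ran from 6.70 to 6.91 and no read depth applies, so precision is limited by 5 rats per group. Of 36685 probesets, 18511 had 1 symbol, 575 several and 17599 none, and the probeset of highest mean stood for a gene. Fits used limma 3.58.1 in R 4.3.3 (lmFit, eBayes) with 10 groups and kit as terms, tested first on simulated data. Members and lists were chosen with earlier results of these data known. Values are given for every ligand called or past the F test, the 3 of smallest p where none was called, the 6 of highest signal, and up to 4 receptors and others that bear on them. Scores are means of centred values without the members. Alternatives covered the kit, filters, probesets, threshold, variance model, normalisation, cell covariates and leaving out each rat.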

Additional observations from a re-analysis of the deposited data

Results flagged for a closer look

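Among 32 groups of 5 rats in which single values of a called ligand are given, 4 held a rat far from the others, and chance alone marks about 1 group in 20. Ccl6 was 11.07 in DEP_par_41, where the other DEP-treated parous rats read 9.85 to 9.90. Ccl3 was 7.41 and Ccl17 7.27 in DEP_par_38, where the others read 9.65 to 9.90 and 11.11 to 12.05. Ccl6 was 11.06 in OIL_null_429, where the other controls read 11.91 to 12.14. Of 12 groups of cell scores, 2 held such a rat: the lymphocyte score was -1.11 in DEP_par_38 (others 1.92 to 2.33) and 1.39 in OIL_null_429 (others -1.18 to -0.91).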

How the results depend on the processing

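With 5 rats a group and 1 Promega rat in each DEP group, the DEP calls were sensitive to the fit. In DEP-treated parous rats (12 ligands) the count was 7 with no kit term, 0 in Zymo rats only, 4 in a fit of the 10 rats, 3 at an adjusted p under 0.05, 6 with the lymphocyte score and 0 with the epithelial score, and in nulliparous rats (4) it was 0 with no kit term, 0 in Zymo rats, 1 at the stricter p, 0 with the epithelial score and 9 with the macrophage score (chosen after seeing the data), of which 1 was lower and 8 higher where the 4 were all lower. Both filters, all probesets, the variance model and quantile normalisation left these counts within 1.5 times. Parity (1) was 0 in Zymo rats, and the F test (5) was 0 with no kit term, 0 in Zymo rats, 3 with the lymphocyte score and 0 with the epithelial score. Leaving out single rats gave 5 to 15, 1 to 6, 0 to 1 and 3 to 16 in these 4 results and 0 to 0 in all others. Calls over all tested genes moved as well. They were 653 to 1745 and 178 to 486 in the parous and nulliparous DEP comparisons, and 716 to 2539 in the F test. Direction turned for Pf4 with no kit term (0.93 in parous, 1.08 in nulliparous rats), with the epithelial score in parous rats for Ccl3 (-0.054), Ccl17 (-0.41), Ccl9 (-0.11) and Ccl4 (-0.29), and in Zymo rats for the uncalled Cxcl9 in MPB nulliparous rats (0.021) and in its interaction (-0.14). The causes were not tested. No paired analysis was possible because rat numbers are not shared between groups.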
